A study of Mus musculus with 10 samples.

Results

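Transcripts of immunoglobulin variable (V) segments were followed in RNA from mouse bone marrow. The members were chosen by their counts: every gene whose symbol begins with Ighv, Igkv or Iglv followed by a digit, and whose deposited counts summed to 50 or more over all libraries. This took 112 of the 346 V symbols in the table of 55367 genes, of which 55 of 183 lay in the heavy chain locus (Ighv), 54 of 160 in the kappa light chain locus (Igkv) and 3 of 3 in the lambda light chain locus (Iglv). The members held 91.2% of all counts on V symbols. Of the other V symbols, 105 had a count of 0 in every library and 129 had a count below the threshold. Just inside the threshold lay Ighv1-52 with a summed count of 52.1 and Igkv14-100 with 53.0, and just outside lay Ighv2-5 with 48.9 and Ighv2-3 with 47.8. Because the summed count of all libraries chose the members, their total abundance is a description and supports nothing.

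Bone marrow cells, labelled BMMC, came from mice that drank regular water (water) or water with 1% α-ketoglutarate (α-KG), an intermediate of the tricarboxylic acid cycle that also serves many dioxygenases as a co-substrate, and the wider study, by its title, deals with metabolism in myeloproliferative neoplasms. Each group held 5 libraries, named by group and number, and equal numbers pair nothing. Total RNA was sequenced after removal of ribosomal RNA. The sources used here do not give genotype, strain, sex, age or how long the mice were treated. No label ties a library to an animal of its own, so every p-value below measures the spread between libraries, which may be technical. Markers of the labelled tissue were present in every library: 8 neutrophil genes summed to 3036 to 6171 CPM (counts scaled to a common library size), and red cell precursor genes were higher still.

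An antibody gene is put together in each developing B cell. One V segment is cut and joined to a joining (J) segment, with a diversity segment between them in the heavy chain, and the joined exon is spliced to a constant region. A B cell and its descendants therefore carry 1 productive heavy chain and, as a rule, 1 productive light chain, and plasma cells, which secrete antibody, hold far more of these transcripts per cell than B cells do. Bone marrow holds both B cell precursors and long-lived plasma cells. In the mouse most light chains are kappa. Iglv1 is usually joined to the constant regions Iglc1 or Iglc3 downstream of it, and Iglv2 to Iglc2.

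The sequences show where a V segment stops and the part made by joining begins. All 112 members matched a V gene of the GENCODE M21 annotation (genome build GRCm38), and all carried the annotated type of a V gene, among 216 such symbols. None of the 129 V symbols annotated as pseudogenes was a member, the highest of them being Ighv1-41 with a summed count of 19.0, and the remaining symbol, Ighv1-13, is annotated as another type. The last 60 bases of the V exon are printed below, 5′ to 3′ on the coding strand, for the segments on which the results turn. Capitals start at the last in-frame cysteine codon, which is as a rule the conserved cysteine that ends the framework of the V domain. Where this rule holds, they mark the bases that the V segment itself can at most give to the third hypervariable loop. This loop is the part of an antibody that differs most between B cells. In Iglv3 the capitals hold an in-frame stop codon (TAA), so not all of them can enter a productive chain.
Ighv1-26: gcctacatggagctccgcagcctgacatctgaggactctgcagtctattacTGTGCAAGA
Ighv1-72: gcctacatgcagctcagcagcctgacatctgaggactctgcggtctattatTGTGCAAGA
Ighv1-53: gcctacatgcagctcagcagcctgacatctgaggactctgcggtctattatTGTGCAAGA
Ighv1-9: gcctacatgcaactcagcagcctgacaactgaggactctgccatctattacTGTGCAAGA
Ighv1-5: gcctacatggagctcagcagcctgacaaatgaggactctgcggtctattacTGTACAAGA
Igkv1-110: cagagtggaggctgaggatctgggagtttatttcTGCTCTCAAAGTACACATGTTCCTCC
Igkv1-135: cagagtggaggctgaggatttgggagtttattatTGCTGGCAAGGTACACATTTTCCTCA
Igkv3-7: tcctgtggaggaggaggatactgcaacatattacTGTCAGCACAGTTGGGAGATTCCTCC
Iglv1: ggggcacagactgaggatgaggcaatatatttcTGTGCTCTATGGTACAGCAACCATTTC
Iglv3: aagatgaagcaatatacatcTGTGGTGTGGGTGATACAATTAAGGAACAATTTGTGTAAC

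These stretches lie at chr12:114788372-114788431 (minus strand), chr12:115757984-115758043 (minus strand), chr12:115158403-115158462 (minus strand), chr12:114583569-114583628 (minus strand) and chr12:114513330-114513389 (minus strand) for the heavy chain. The kappa stretches lie at chr6:68271208-68271267 (plus strand), chr6:67610449-67610508 (plus strand) and chr6:70607977-70608036 (plus strand), and the lambda stretches at chr16:19085017-19085076 (minus strand) and chr16:19241207-19241266 (minus strand). Each is coding exon. Over the 55 heavy chain members the cysteine codon and what follows it spanned a median of 9 bases (4 to 15), over the 54 kappa members 26 bases (21 to 28) and over the lambda members 27 to 40 bases. The 9 letters TGTGCAAGA began this stretch in 34 of 55 heavy chain members (61.8%) and in 63 of 113 heavy chain V genes overall (55.8%). Ighv1-53 and Ighv1-72 shared all 60 bases, and 11 members in all shared them with another member, 5 of these in 1 set of Ighv1 segments, so the 3′ end alone cannot tell such segments apart.

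V segment transcripts were scarce. A library held 660 to 4280 counts on V symbols, 0.00462% to 0.0190% of its total of 14291364 to 22490118 counts, and the median count of a member in a library was 10.9. A count above 0 was found in all 10 libraries for 86 members, and 26 members had a count of 0 in at least 1 library. The libraries also differed in ways the labels do not name. The structural RNAs Rn7s1 and Rn7s2 took 7.56% to 24.2% of the counts in water and 24.0% to 31.0% in α-KG libraries, the scaling factors ran from 0.737 to 1.44, and Xist at 258 to 785 CPM and the Y-linked Ddx3y at 13.5 to 28.0 CPM were found together in all 10 libraries. With the abundant structural RNAs left out of the library totals, the log2 ratios of α-KG to water in the summed level, given below with TMM scaling, were -0.60 for the heavy chain, -0.57 for kappa and -1.18 for lambda. The part of the other features in the results below was not tested.

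The summed level of each locus had a lower mean in the α-KG libraries, and the groups overlapped in all 3 loci. Levels are CPM after TMM scaling, a scaling that sets the bulk of genes equal between libraries. In water 1 to 5 the 55 heavy chain members summed to 60.8, 48.6, 59.7, 68.3 and 24.8 CPM, and in α-KG 1 to 5 to 31.6, 48.8, 39.3, 25.9 and 30.03 CPM. Water 5 lay below every α-KG library, water 2 lay just below α-KG 2, and the other 3 water libraries lay above all α-KG libraries. The means were 52.5 ± 17.0 CPM in water and 35.1 ± 9.04 CPM in α-KG (SD, n = 5 each), a log2 ratio of -0.58. The 54 kappa members summed to 45.2, 39.9, 57.8, 65.2 and 26.7 CPM in water and to 30.8, 42.5, 36.2, 25.2 and 24.3 CPM in α-KG, with means of 47.0 ± 15.1 and 31.8 ± 7.67 CPM and a log2 ratio of -0.56. Water 5 was again the low library of its group and α-KG 2 the high one. The 3 lambda members summed to 13.4, 8.04, 10.3, 10.1 and 4.08 CPM in water and to 3.69, 5.38, 3.66, 4.85 and 3.02 CPM in α-KG, with means of 9.19 ± 3.44 and 4.12 ± 0.964 CPM and a log2 ratio of -1.16. Here 4 of 5 water libraries lay above every α-KG library, and water 5 lay inside the α-KG range. Without each library's most abundant lambda segment, which was Iglv1 in 9 of 10 libraries, the lambda ratio was -0.57. In bulk RNA, fewer cells of a type and less RNA per cell cannot be told apart. Scaled by plain library totals, the log2 ratios were -0.87, -0.83 and -1.50, while the median of all tested genes moved by -0.24.

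**Figure D1:**
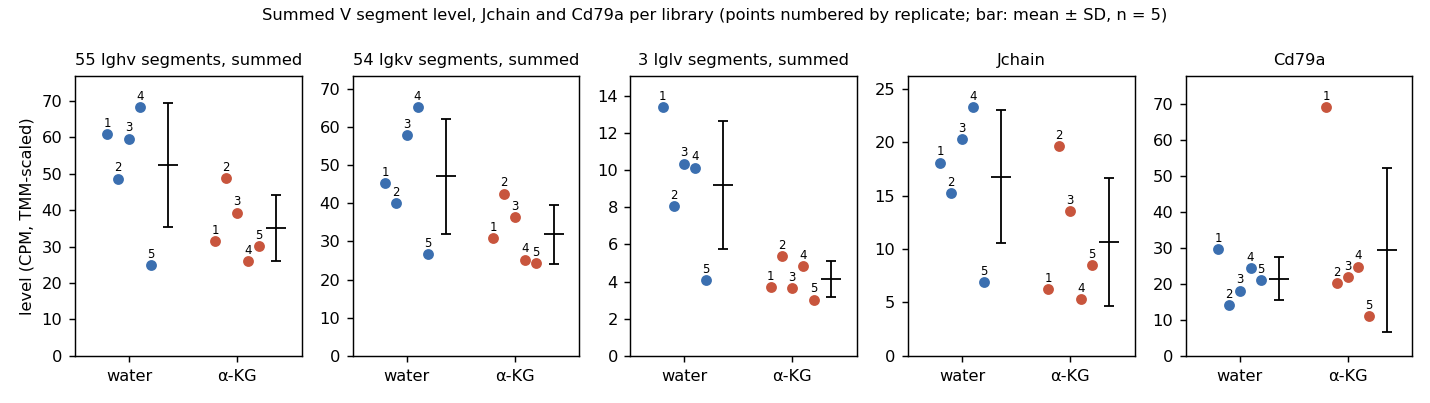
Summed V segment level of each locus, and the levels of Jchain and Cd79a, in CPM after TMM scaling (linear axes from 0), for 5 water and 5 α-KG libraries. Points carry the replicate number and bars give the mean ± SD; water 5 (24.8, 26.7 and 4.08 CPM in the 3 loci) lies apart from the other water libraries, and Cd79a in α-KG 1 (69.2 CPM) stands above all others.

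Jchain was low in the libraries that were low in V segments. The summed plasma cell markers were low in water 5 and α-KG 5 of these, but not in α-KG 1 or α-KG 4. Jchain encodes the chain that links IgM and IgA into polymers, is abundant in plasma cells, and was at 18.1, 15.2, 20.3, 23.3 and 6.93 CPM in water and 6.26, 19.7, 13.6, 5.32 and 8.49 CPM in α-KG. The 4 libraries lowest in Jchain (water 5 and α-KG 1, 4 and 5) were also the 4 lowest in summed V segments. The 14 plasma cell genes, Jchain among them, summed to 274, 254, 269, 294 and 230 CPM in water and 369, 263, 301, 286 and 249 CPM in α-KG. On that sum water 5 and α-KG 5 were the lowest of all, while α-KG 1 was the highest of all and α-KG 4 lay above 4 of the 5 water libraries. Its mean was 264 CPM in water and 294 CPM in α-KG. To these means Edem1 gave 59.8 and 81.8 CPM, and Xbp1, which other cells also express, gave 34.2 and 40.0 CPM. Jchain gave 16.8 and 10.7 CPM and Mzb1 2.05 and 1.29 CPM, so the sum rests mostly on other genes than these 2. Cd79a, part of the signalling unit of the B cell receptor, was at 29.6, 14.1, 18.1, 24.5 and 21.1 CPM in water and 69.2, 20.2, 21.9, 24.8 and 11.2 CPM in α-KG. Its highest library, α-KG 1, was not high in V segments. Jchain (log2 fold change -0.65 ± 0.37 SE) and Cd79a (0.46 ± 0.40) did not pass the edgeR test, at adjusted p of 0.268 and 0.458. Without α-KG 1 the Cd79a value was -0.14. Both genes were picked after their values had been seen.

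Among single V segments, 1 fell with α-KG and none rose. The test was edgeR's quasi-likelihood test over 15126 genes that passed the filter on low counts, with Benjamini-Hochberg adjustment over all of them and a threshold of 0.05. The filter kept 65 of the 112 members (36 heavy, 26 kappa and 3 lambda) and left out 47. Iglv1 was the member called lower, against 0.344% of all tested genes called lower, and 0 members were called higher, against 2.39% of all tested genes. At an unadjusted p under 0.05, 14 tested members were lower (11.5% of all genes) and 0 were higher (16.3% of all genes). The log2 fold change was below 0 for 50 of the 65 tested members, or 76.9%, against 48.3% of all tested genes, and above 0 for the other 15. Its median was -0.49 over the tested members (range -2.55 to 0.91) and 0.02 over all tested genes. By locus, 30 of 36 heavy chain members (median -0.53), 18 of 26 kappa members (median -0.41) and 2 of 3 lambda members (median -1.05) were below 0. Both the summed count that chose the members and the filter on low counts could be met through 1 group alone, so the direction of scarce members is set in part by these rules. Members of a locus share cells and libraries, so these counts describe the libraries and are not separate observations of the treatment.

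Under DESeq2, which scales and filters in its own way, 8 members were called lower and 0 higher. It gave an adjusted p to 86 members, left it undefined for 26, and called 4.3% of all genes lower and 6.06% higher. Its 8 were Igkv3-7, Iglv1, Ighv1-80, Ighv1-9, Ighv1-59, Ighv1-5, Igkv3-4 and Igkv4-55. With each library left out in turn, DESeq2 called 4 members lower without water 1 (1.33% of all genes) or water 4 (0.717%) and 5 without α-KG 3 (0.701%). It called 12 without α-KG 2, where 10.8% of all genes were called lower, and 6 to 8 in the other runs, where 1.06% to 4.96% were. Iglv1 and Igkv3-7 were among them in 10 of 10 runs. Ighv1-5 and Ighv1-9 were among them in 8, Ighv1-80 and Ighv1-59 in 7, Igkv3-4 in 5 and Igkv4-55 in 4. In edgeR the same runs called 4 of 74 members lower without α-KG 2, where 6.97% of all genes were called lower, and 2 of 80 without water 5, where 0.110% were. They called 0 in each of the other 8 runs (0 to 0.630% of all genes), and Iglv1 was among those called in 2 of 10. For 8 of the 26 tested segments named here, leaving out 1 library changed the fold change itself (not its log2) by a factor of over 1.5. The log2 fold changes without that library are given with each segment.

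**Figure D2:**
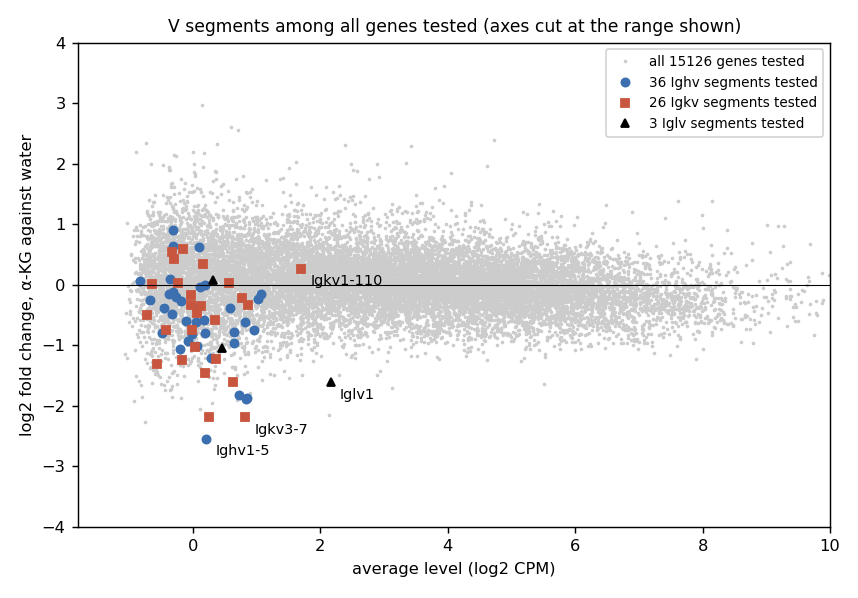
Log2 fold change of α-KG against water over the average level (log2 CPM) for all 15126 genes tested (grey) and for the 36 heavy chain, 26 kappa and 3 lambda V segments tested. Of the V segments 50 lie below 0, from -2.55 (Ighv1-5) upwards, and Iglv1 at -1.61 is the member past the adjusted p of 0.05.

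Iglv1 was the V segment with the highest level per kilobase of exon, 10.96 CPM per kb, followed by Igkv1-110 at 7.76, Ighv1-26 at 5.63, Ighv9-3 at 5.12, Ighv1-72 at 4.85, Igkv14-111 at 4.72 and Ighv1-9 at 4.61 CPM per kb. It lies at chr16:19085017-19085500 on the minus strand. Its level was 8.98, 5.82, 7.28, 8.39 and 1.79 CPM in water 1 to 5 and 1.24, 3.26, 2.30, 2.14 and 1.64 CPM in α-KG 1 to 5. For Iglv1, 4 of the water libraries lay above every α-KG library, and water 5 lay inside the α-KG range, so the groups overlapped through this library. The means were 6.45 ± 2.87 and 2.12 ± 0.763 CPM. The log2 fold change was -1.61 ± 0.38 (SE), with an adjusted p of 0.0456 in edgeR and of 0.00228 in DESeq2. The edgeR call was lost without water 1 (adjusted p 0.123), water 2 (0.100), water 3 (0.0563), water 4 (0.130), α-KG 1 (0.0778), α-KG 3 (0.107), α-KG 4 (0.107) or α-KG 5 (0.0715). The log2 fold change stayed between -1.84 and -1.46 in all 18 alternatives. Without water 1, 2 or 4, or without α-KG 4, edgeR called 0 of all genes.

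Iglv2 and Iglv1 are near copies, and the bases by which their V exons differ are shown because reads are assigned to one or the other through them. The exons lie on the minus strand, are 305 bases long and differ at 9 bases (97.05% identity). Their last 300 bases, at chr16:19085017-19085316 and chr16:19260401-19260700, hold 8 of these, in capitals.
Iglv1: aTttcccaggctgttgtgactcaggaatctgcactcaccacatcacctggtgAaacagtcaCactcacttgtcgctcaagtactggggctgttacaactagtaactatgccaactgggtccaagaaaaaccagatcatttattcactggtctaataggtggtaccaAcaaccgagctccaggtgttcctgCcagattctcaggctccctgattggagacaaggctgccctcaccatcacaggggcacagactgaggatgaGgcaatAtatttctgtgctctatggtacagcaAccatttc
Iglv2: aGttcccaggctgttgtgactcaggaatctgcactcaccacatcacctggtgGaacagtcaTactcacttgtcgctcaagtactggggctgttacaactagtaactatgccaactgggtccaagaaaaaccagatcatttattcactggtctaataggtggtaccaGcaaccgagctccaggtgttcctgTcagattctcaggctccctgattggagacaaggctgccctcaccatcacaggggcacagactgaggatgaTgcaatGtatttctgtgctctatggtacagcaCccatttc

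Reads without one of these bases fit both segments, so the split of counts between them is uncertain. Iglv2 was at 2.71, 1.57, 1.86, 0.750 and 1.36 CPM in water and 0.428, 1.38, 0.472, 1.56 and 0.373 CPM in α-KG, with overlapping groups, a log2 fold change of -1.05 ± 0.45 and an adjusted p of 0.156 in edgeR. Iglv3, whose exon is 55.9% identical to that of Iglv1, was at 1.70, 0.645, 1.21, 0.984 and 0.929 CPM in water and 2.02, 0.741, 0.886, 1.14 and 1.01 CPM in α-KG. Its groups overlapped across nearly their whole ranges (log2 fold change 0.08 ± 0.34, adjusted p 0.891 in edgeR). Iglv1 was the most abundant lambda segment in 9 libraries, with 43.9% to 82.9% of the lambda V level, and Iglv3 was the most abundant in α-KG 1 with 54.7%. Lambda segments made up 16.3% ± 3.93 of the light chain V level in water (13.2% to 22.8%) and 11.7% ± 2.63 in α-KG (9.17% to 16.1%), with overlapping groups.

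Among the lambda constant regions, Iglc1 fell, and neither Iglc2 nor Iglc3 passed the test. Iglc1 (chr16:19061618-19062071) was at 9.58, 7.10, 6.15, 8.44 and 3.29 CPM in water and 2.41, 2.57, 2.01, 3.23 and 2.23 CPM in α-KG. Its groups did not overlap, with water 5 just above α-KG 4, which 2.02% of all tested genes also showed with α-KG lower. Iglc1 fell, with a log2 fold change of -1.49 ± 0.26 and an adjusted p of 0.0184 in edgeR, a call lost without water 1 (0.0779), water 2 (0.0663), water 4 (0.0800), α-KG 3 (0.0627) or α-KG 4 (0.0528). Iglc2 was at 7.28, 3.08, 2.56, 4.13 and 2.29 CPM in water and 5.25, 3.56, 3.37, 5.04 and 2.30 CPM in α-KG (log2 fold change -0.00 ± 0.32, adjusted p 0.997), and Iglc3 had a log2 fold change of -0.53 ± 0.34 (adjusted p 0.305 in edgeR). Iglc2 and Iglc3 are 96.2% identical, so their counts may be split between them, while Iglc1 and Iglc2 are 73.5% identical. Ratios within a library need no scaling between libraries. The log2 ratio of Iglc1 to Iglc2 averaged 0.88 ± 0.40 in water and -0.60 ± 0.39 in α-KG without overlap, and that of Iglv1 to Iglv3 averaged 2.44 ± 0.90 and 0.89 ± 1.04 with overlap. Against the kappa constant region Igkc, the log2 ratio of Iglv1 averaged -3.90 ± 0.64 in water and -4.99 ± 0.52 in α-KG, with overlap through water 5 (-4.89). These ratios were picked after the values had been seen and are given without a test.

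**Figure D3:**
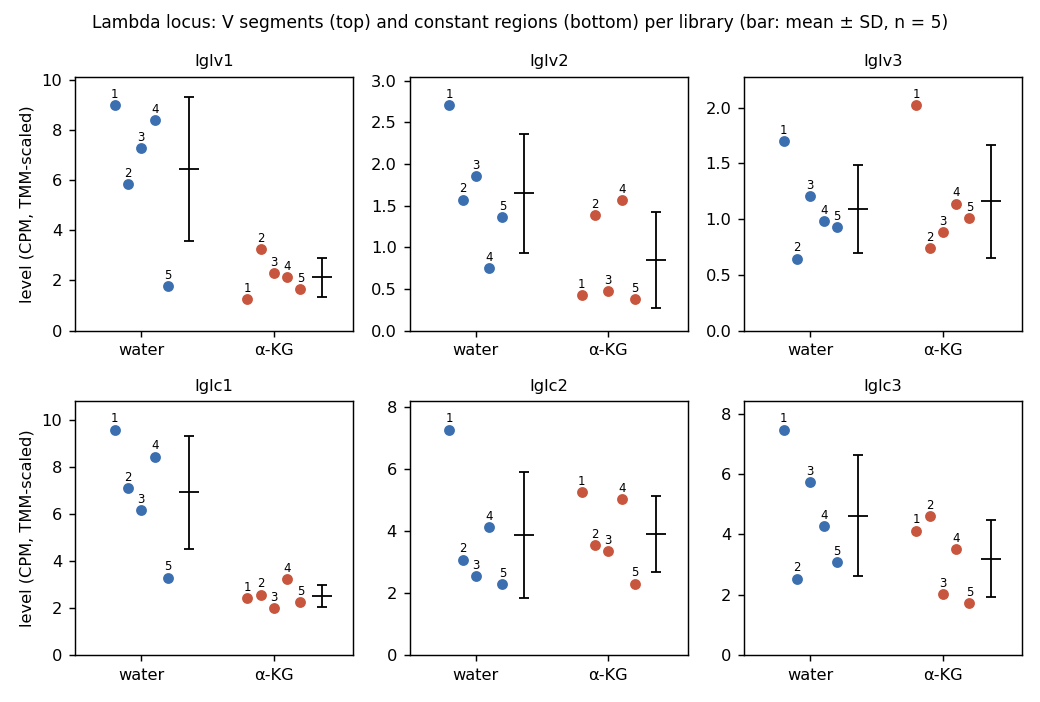
Levels of the lambda V segments (top) and lambda constant regions (bottom) in CPM after TMM scaling, on linear axes from 0, for 5 water and 5 α-KG libraries; points carry the replicate number and bars give the mean ± SD. The α-KG libraries span 1.24 to 3.26 CPM for Iglv1 against 5.82 to 8.98 CPM in water 1 to 4, while Iglv3 and Iglc2 overlap throughout.

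In the heavy chain locus, the most abundant segments did not pass the test. Ighv1-26 (chr12:114788372-114788805, minus strand) was at 1.89, 1.81, 2.77, 2.27 and 1.64 CPM in water and 1.38, 2.13, 2.93, 1.81 and 1.12 CPM in α-KG, with a log2 fold change of -0.15 ± 0.26 and an adjusted p of 0.735 in edgeR. Ighv1-72 (chr12:115757984-115758461) was at 1.93, 2.77, 2.06, 1.66 and 2.04 CPM in water and 2.09, 0.883, 2.80, 0.665 and 2.29 CPM in α-KG (-0.24 ± 0.34, adjusted p 0.652). Both were spread over all libraries, with no more than 14.8% of the summed level in 1 library where an even split gives 10%. The other segments of high mean level were Ighv9-3 (-0.75 ± 0.56), Ighv2-9-1 (-1.88 ± 0.89), Ighv1-9, Ighv8-8 (-0.61 ± 0.34), Ighv1-80 and Ighv1-53 (-0.77 ± 0.49). Ighv9-3 moved to -0.16 without water 4, and Ighv2-9-1 to -1.12 without water 2 and to -2.58 without α-KG 2. The adjusted p of Ighv9-3, Ighv2-9-1, Ighv8-8 and Ighv1-53 in edgeR ran from 0.191 to 0.387.

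The 3 heavy chain segments with the smallest p belong to the Ighv1 family, and none of them passed the edgeR test. Ighv1-5 (chr12:114513330-114513807) was at 4.70, 0.745, 1.421, 0.609 and 0.643 CPM in water and 0.311, 0.444, 0.177, 0.380 and 0.0720 CPM in α-KG. Water 1 held 49.5% of its level over all libraries, and every other water library also lay above every α-KG library. Its counts in α-KG were too low for the filter on low counts, so it was tested through the water libraries alone. This separation is thus set in part by the filter and supports nothing. Ighv1-5 was the tested member whose groups did not overlap with α-KG lower (2.02% of all tested genes). No tested member had groups apart with α-KG higher, against 3.64% of all tested genes. The log2 fold change of Ighv1-5 was -2.55 ± 0.67, with an adjusted p of 0.0603 in edgeR and 0.00578 in DESeq2, and was -1.61 without water 1 (adjusted p 0.133 in edgeR). Ighv1-9 (chr12:114583569-114584002) was at 2.16, 1.49, 1.74, 6.70 and 0.715 CPM in water and 0.894, 1.04, 0.354, 0.570 and 0.504 CPM in α-KG (-1.89 ± 0.55, adjusted p 0.0725 in edgeR and 0.0127 in DESeq2), and its log2 fold change was -1.17 without water 4. Ighv1-80 (chr12:115912344-115912776) was at 3.04, 1.16, 3.41, 3.41 and 0.357 CPM in water and 0.683, 0.925, 0.649, 0.190 and 0.648 CPM in α-KG (-1.82 ± 0.52, adjusted p 0.0702 in edgeR and 0.0153 in DESeq2). In both Ighv1-9 and Ighv1-80, water 5 lay inside the α-KG range and the other 4 water libraries lay above it.

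Of the segments above 0, Ighv5-4 had the smallest p, at 0.976, 0.149, 0.284, 0.750 and 0.214 CPM in water and 1.128, 0.593, 1.36, 1.14 and 0.504 CPM in α-KG, with overlapping groups (log2 fold change 0.91 ± 0.49, adjusted p 0.239 in edgeR). Next were Igkv3-10 (0.55 ± 0.38, adjusted p 0.345), Ighv8-12 (0.64 ± 0.47, 0.371) and Igkv4-59 (0.58 ± 0.44, 0.394). The Igkv4-59 value turned to -0.08 without α-KG 2, which held 28.3% of its level. Among families, Ighv1, with 28 of its 92 symbols among the members, summed to 28.4 ± 10.2 CPM in water (11.6 to 37.2) and 17.3 ± 5.97 CPM in α-KG (11.7 to 26.7), and 13 of its 16 tested members were below 0. Ighv5, with 6 members, summed to 4.01 ± 1.02 and 3.37 ± 0.981 CPM, and 2 of its 4 tested members were below 0. The groups overlapped in both families.

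In the kappa locus the most abundant segment was Igkv1-110 (chr6:68270485-68271267, plus strand), at 2.74, 5.03, 3.77, 1.425 and 1.25 CPM in water and 3.07, 5.89, 4.55, 1.09 and 2.29 CPM in α-KG. The groups overlapped across nearly their whole ranges, with an adjusted p of 0.721 in edgeR. The log2 fold change was 0.26 ± 0.44 and turned to -0.03 without α-KG 2. Igkv1-135 (chr6:67609713-67610508) was the member spread most evenly, with at most 12.9% of its level in 1 library. It was at 1.27, 1.64, 1.03, 1.41 and 1.57 CPM in water and 1.79, 1.19, 1.59, 1.43 and 0.936 CPM in α-KG (0.03 ± 0.24, adjusted p 0.951). Igkv1-117 (-0.21 ± 0.43), Igkv10-96 (-0.57 ± 0.37), Igkv14-111 (-0.34 ± 0.59) and Igkv12-46 (-1.601 ± 0.76) did not pass either, at adjusted p of 0.190 to 0.763 in edgeR. Igkv12-46 was highest in water 4 at 6.23 CPM (others 0.214 to 2.84), and its log2 fold change was -0.66 without that library. The Igkv1 family summed to 6.72 ± 1.81 CPM in water and 6.37 ± 2.87 CPM in α-KG, while the Igkv3 family summed to 7.33 ± 2.94 and 3.76 ± 1.09 CPM and the Igkv4 family to 8.01 ± 5.04 and 4.07 ± 1.598 CPM. The groups overlapped in all 3 of these families.

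Igkv3-7 (chr6:70607437-70608036, plus strand) had the smallest p of the kappa segments. Its level was 3.74, 0.894, 5.61, 1.36 and 1.14 CPM in water and 0.311, 0.296, 0.722, 0.570 and 1.07 CPM in α-KG. Water 3 and water 1 were high, and the groups overlapped through water 2 and α-KG 5. The log2 fold change was -2.19 ± 0.57, with an adjusted p of 0.0597 in edgeR and 0.00561 in DESeq2. Igkv4-55, at 0.938, 0.298, 6.31, 3.43 and 0.286 CPM in water and 0.700, 0.148, 0, 0.190 and 0.144 CPM in α-KG, had 50.7% of its level in water 3 and did not pass the edgeR filter. DESeq2 gave it a log2 fold change of -3.24 and an adjusted p of 0.0410, a call kept in 4 of 10 runs with a library left out.

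A different heavy chain segment and a different kappa segment led in each water library. The leading heavy chain segment in water 1 to 5 was Ighv1-5 (7.73% of the locus level), Ighv2-9-1 (14.4%), Ighv1-53 (5.78%), Ighv1-9 (9.81%) and Ighv5-16 (13.8%). In α-KG 1 to 5 it was Ighv1-72 (6.61%), Ighv1-18 (7.75%), Ighv1-26 (7.45%), Ighv1-26 (6.96%) and Ighv1-72 (7.64%). The leading kappa segment in water was Igkv3-7 (8.27%), Igkv1-110 (12.6%), Igkv4-55 (10.9%), Igkv12-46 (9.56%) and Igkv14-111 (17.1%), and in α-KG it was Igkv1-110 (9.97%), Igkv1-110 (13.9%), Igkv1-110 (12.6%), Igkv9-120 (7.55%) and Igkv1-110 (9.41%). Of these, Ighv5-16 (log2 fold change -0.60) was at 0.40 without water 5 and -1.61 without α-KG 3, and Ighv1-18 (0.63) was at -0.67 without α-KG 2. Whether the groups differ in their leading segments was not tested.

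Many segments were carried by few libraries. The library with the highest level held a median of 22.7% of a member's level over all libraries, over 30% for 37 of the 112 members and over 50% for 4 (Igkv1-99 with 73.7%, Ighv14-1 with 70.5%, Igkv6-20 with 55.3% and Igkv4-55 with 50.7%). The highest library was a water library for 70 members and an α-KG library for 42. Water 4 was highest for 21 members, water 3 for 20, α-KG 2 for 19, water 1 for 14, water 2 for 12 and α-KG 3 for 11, and the 4 libraries low in Jchain were highest for 2 to 6 members each. The effective number of segments, which is the number of equally abundant segments that would give the same concentration (inverse Simpson index), was 26.9 ± 6.14 in water (20.9 to 33.4) and 32.5 ± 3.35 in α-KG (29.3 to 36.8) for the heavy chain. It was 24.7 ± 5.52 and 26.7 ± 2.65 for kappa and 1.96 ± 0.517 and 2.37 ± 0.267 for lambda. The groups overlapped in each locus. These values depend on depth, since a scarce segment can be missed in a library with few V counts.

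**Figure D4:**
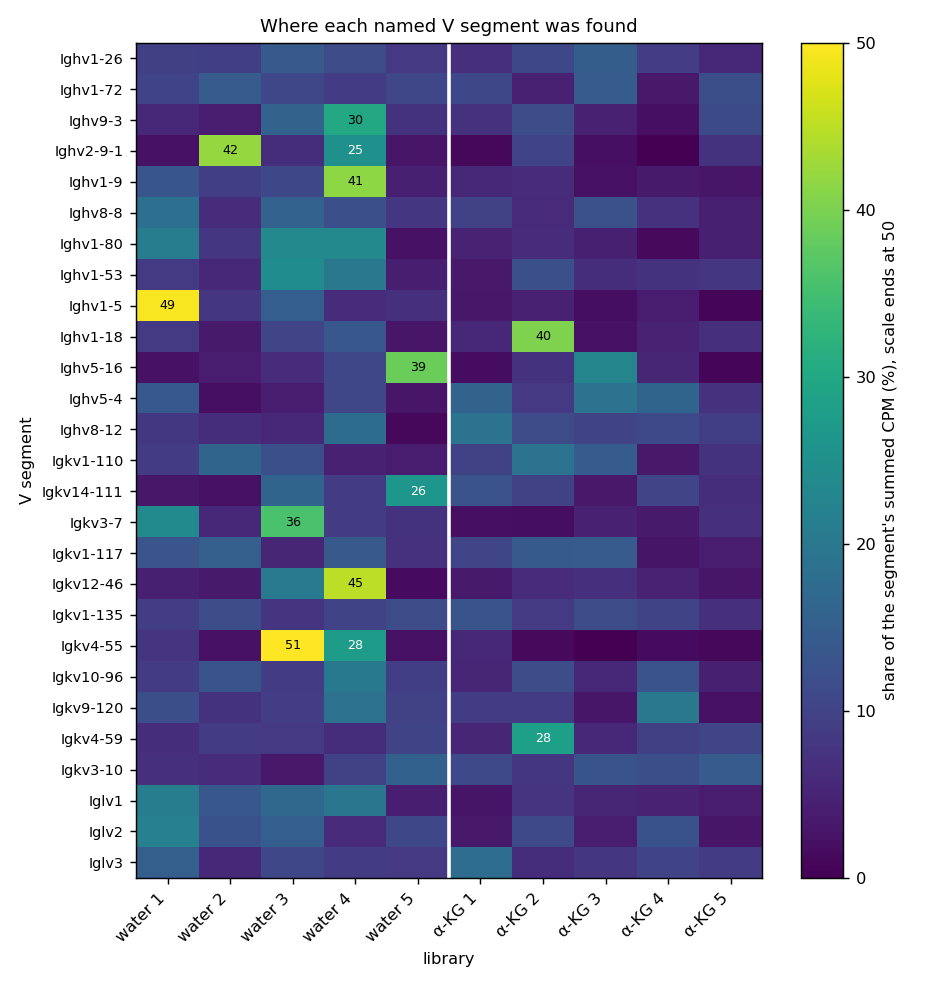
Share (%) of a segment's summed CPM found in each of the 10 libraries, for the V segments named by level, test or lead (rows) and the libraries (columns, water to the left of the white line); the colour scale ends at 50% and the largest shares are printed. Igkv4-55 has 50.7% in water 3 and Ighv1-5 49.5% in water 1, while Igkv1-135 has no library above 12.9%.

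Position along the locus was compared with the joining segments as the reference point, after dividing the symbols of a locus into 3 groups of nearly equal number by distance, a division made after the data had been seen. Heavy chain V segments lay 144 to 2580 kb from the joining segments. Their summed level had a log2 ratio of α-KG to water of -0.52 in the nearest group (19 members), -0.55 in the middle group (17 members) and -0.65 in the farthest group (19 members). These 3 groups held 33.5%, 26.9% and 39.6% of the heavy chain V level in water and 34.8%, 27.5% and 37.7% in α-KG. In the kappa locus, 19.6 to 3168 kb long on this scale, the log2 ratios were -0.70 (26 members), -0.98 (11 members) and -0.29 (17 members), with 44.4%, 16.1% and 39.5% of the level in water and 40.4%, 12.1% and 47.6% in α-KG. The middle kappa group held 53 symbols, of which 11 were members and 1 passed the filter. The summed levels of water and α-KG libraries overlapped in each of the 6 groups.

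**Figure D5:**
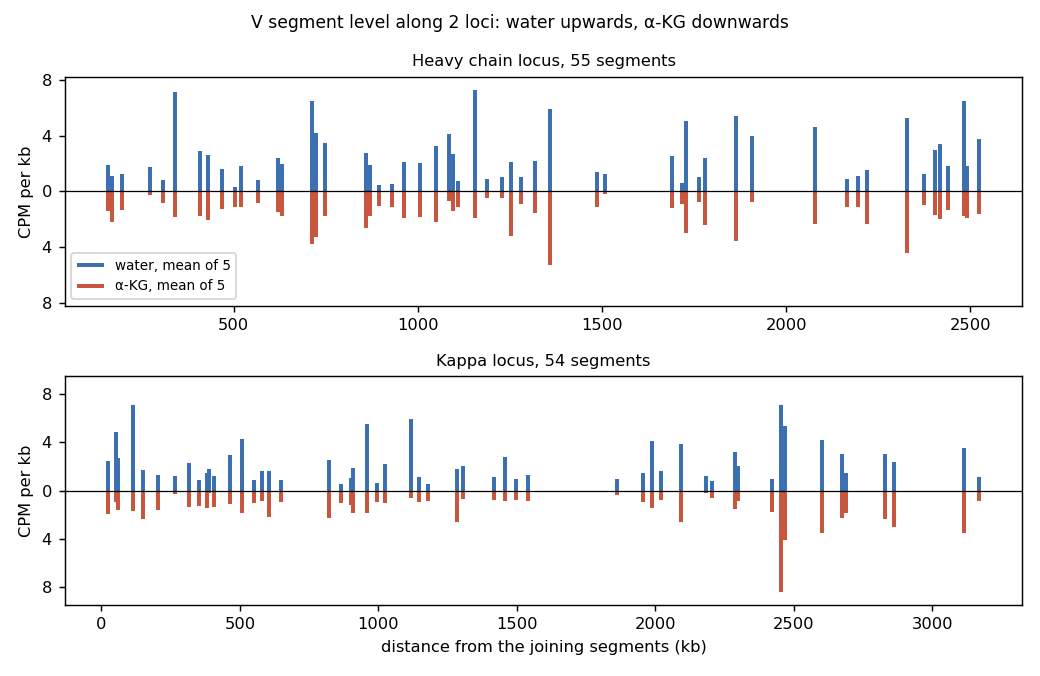
Mean level per kilobase of exon (CPM per kb, n = 5) of each heavy chain (55) and kappa (54) V segment over its distance from the joining segments in kb, with water drawn upwards and α-KG downwards from 0. Expressed segments lie along the full length of both loci in both groups, with 11 of the kappa members in the middle stretch.

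Among all constant regions, which the V segments are spliced to, Iglc1 alone passed the edgeR test. Of 12 constant regions, 11 passed the filter, Iglc1 fell (0.344% of all genes called lower) and 0 rose. In 10 of them the log2 fold change was below 0, against 48.3% of all tested genes, and the median was -0.45. Iglc2 at -0.00 was among these 10 and took either sign under other settings. Igkc, the only kappa constant region, was at 79.4, 71.1, 110, 128 and 53.0 CPM in water and 71.4, 78.3, 64.6, 51.6 and 56.6 CPM in α-KG (-0.45 ± 0.22, adjusted p 0.199 in edgeR). Kappa V level per unit of Igkc was 0.534 ± 0.0298 in water and 0.491 ± 0.0610 in α-KG. For the heavy chain, V level per unit of summed constant regions was 0.157 ± 0.0249 in water and 0.132 ± 0.0283 in α-KG, lowest in α-KG 1 at 0.0901, and for lambda it was 0.595 ± 0.0917 and 0.441 ± 0.0801. The groups overlapped in each of these ratios.

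Constant regions tell which antibody class a transcript belongs to. Ighm, the constant region of IgM, was at 196, 137, 202, 299 and 150 CPM in water and 258, 136, 136, 150 and 114 CPM in α-KG (-0.31 ± 0.26, adjusted p 0.446), with α-KG 1 highest in its group. Ighd, which is spliced to the same V exon in naive B cells, was at 8.10, 3.62, 9.45, 4.13 and 4.004 CPM in water and 39.7, 5.23, 16.1, 18.1 and 3.74 CPM in α-KG (1.49 ± 0.56, adjusted p 0.120), with a log2 fold change of 0.84 without α-KG 1. Igha, the class secreted at mucosal surfaces, was at 126, 102, 102, 90.3 and 33.5 CPM in water and 42.3, 134, 90.2, 36.4 and 74.8 CPM in α-KG (-0.26 ± 0.39, adjusted p 0.668). The 4 libraries low in V segments were also the 4 lowest in Igha. Ighg2c, an IgG constant region, was at 9.15, 8.59, 17.9, 13.4 and 16.7 CPM in water and 0.389, 6.57, 3.96, 4.66 and 4.82 CPM in α-KG. Its groups did not overlap, and here water 5 was not low. Its log2 fold change was -1.71 ± 0.48, with an adjusted p of 0.0692 in edgeR and 0.0111 in DESeq2. Ighg1 (-0.45 ± 0.29), Ighg2b (-0.52 ± 0.41) and Ighg3 (-1.47 ± 0.78) did not pass. Without α-KG 2, Ighg3 was at -2.65 and passed (adjusted p 0.0446 in edgeR, in the run that called 6.97% of all genes lower), and without water 1 it was at -0.81, while Ighe had a summed count of 9.0. Of 12 joining segments, Ighj1 passed the filter (-0.10 ± 0.48, adjusted p 0.904).

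No gene of the B lineage lists passed the edgeR test. Of 14 genes of mature B cells, 14 passed the filter, 0 were called in either direction, 13 had a log2 fold change above 0, and the median was 0.52. Of all tested genes, 48.3% had a log2 fold change below 0. The summed level of the mature B cell genes was 262 to 372 CPM in water. In α-KG it was 1087 CPM in α-KG 1 and 332 to 535 CPM in the other libraries. The 3 with the smallest p were Cr2, a complement receptor (2.04 ± 0.58, adjusted p 0.0703), Cd74, the invariant chain of antigen presentation (1.102 ± 0.30, 0.0611), and Bank1, an adaptor of B cell receptor signalling (1.596 ± 0.50, 0.0857). DESeq2 called all 3 higher (adjusted p 0.00978, 0.0103 and 0.0206), as it did 6.06% of all genes. Of the Cr2 level over all libraries 41.3% lay in α-KG 1, without which its log2 fold change was 1.28. Cd74 alone gave 107.5 CPM of the mean sum of 323.3 CPM in water and 230.8 CPM of 551.2 CPM in α-KG. Other marrow cells also express Cd74, and their part in its level was not tested. Of 13 genes of early B cells and V(D)J recombination, 11 were tested, 0 were called, 8 had a log2 fold change above 0, and the median was 0.35. The 3 with the smallest p were Cd93, a surface protein of immature B cells that other marrow cells also carry (0.40 ± 0.14, adjusted p 0.108), Il7r, the receptor for interleukin 7 (0.50 ± 0.29, 0.260), and Rag1, which cuts V segments for joining (-0.67 ± 0.47, 0.353). Of 14 plasma cell genes other than the antibody genes, 13 were tested, 0 were called, 8 were above 0, and the median was 0.12. The 3 with the smallest p were Edem1, which takes part in the breakdown of misfolded secretory proteins (0.45 ± 0.15, adjusted p 0.101), Mzb1, a chaperone of antibody secretion (-0.65 ± 0.30, 0.182), and Xbp1, a factor of the secretory programme that other cells also express (0.22 ± 0.11, 0.205). Among markers of other marrow cells, 5 of 10 monocyte and macrophage genes rose (summed level 214 to 306 CPM in water and 307 to 579 CPM in α-KG) and 1 of 10 T cell genes rose, against 2.39% of all tested genes called higher, and 0 of 8 neutrophil and 0 of 8 erythroid genes were called. The part of these cell types in the V segment levels was not tested.

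Near copies limit how finely the segments can be told apart. In 25 members, 12 of them tested, the V exon was at least 97% identical to another V exon, a cut set after the data had been seen, and the median identity to the closest V exon over all members was 95.5%. Of the values above 0, 49.2% were not whole numbers in these 25 members and 17.2% in the other members, against 24.8% over all genes (whole within 0.0001). Ighv1-72 (99.0% identical to Ighv1-62-3), Ighv1-26 and Ighv1-18 (97.4% identical to each other), Iglv1 with Iglv2, and Igkv3-10 (98.1% identical to Igkv3-5) are therefore uncertain as single segments. The sums over a locus do not depend on this split, except for reads shared with V symbols that are not members.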

How the data were processed

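RNA-seq of mouse bone marrow gave 10 libraries, 5 from mice on water and 5 from mice on α-KG, all used here. The values deposited by the authors are expected counts (estimated counts that need not be whole) per gene, unscaled between libraries. The submitters' processing notes name bcl2fastq, DRAGEN and the build GRCm38. The sources used here give no versions, quantifier, annotation release or strand setting, so overlapping and antisense transcripts cannot be told apart. Library totals ran from 14291364 to 22490118.

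Counts were rounded and tested with edgeR 4.0.16 in R 4.3.3 (filterByExpr at a minimum count of 10 and total of 15, TMM scaling, robust quasi-likelihood test, two-sided, Benjamini-Hochberg adjustment over 15126 genes, threshold 0.05; common biological coefficient of variation 0.254). Standard errors are the size of the log2 fold change over the root of its F statistic. Levels in CPM use the unrounded counts and TMM, and errors beside them are SD. The fit was tested on simulated data. Positions, exon lengths and sequences came from GENCODE M21. A V exon's identity is 1 minus its edit distance over the longer length. Python 3.11.15 made the summaries.

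Segments named in the text are the 8 most abundant heavy and kappa members, all lambda members, those called, the 4 with the smallest p in each direction, the most abundant member of each locus and library, and the nearest to the threshold. A part of the rule on members with a summed count of 500 or more took Igkv1-110 and Iglv1. Constant and joining segments and the 3 genes with the smallest p in each B lineage list were also named. Members and lists were chosen with earlier results of these data known. Named after their values were seen were Jchain, Cd79a, Ighv1-59, Igkv3-4, Ighv5-12, the members with over 50% in 1 library and the within-library ratios. Alternatives were DESeq2 1.42.0, limma voom (limma 3.58.1), other scalings and filters, no robust option, and each library left out in turn, which for DESeq2 was added after the data had been seen.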

Additional observations from a re-analysis of the deposited data

Results flagged for a closer look

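In 90 groups of 5 values (named V segments, constant regions and locus sums in water and in α-KG), 9 had a highest library whose gap to the next exceeded the 95% critical value of Dixon's test, 0.71 of the range. Chance flags about 1 in 20 groups where values are normally distributed, which levels from scarce counts need not be. Segments were also named in part for leading a library, and 4 of the 9 lay in the library that named the segment (Ighv1-9, Ighv1-5, Ighv5-16 and Ighv1-18). For both reasons the count cannot be set against that rate. Among V segments these were Ighv1-9 in water 4 at 6.70 CPM (others 0.715 to 2.16), Ighv1-5 in water 1 at 4.70 CPM (others 0.609 to 1.421), Ighv5-16 in water 5 at 3.43 CPM (others 0.216 to 0.938), Ighv1-18 in α-KG 2 at 3.78 CPM (others 0.236 to 0.648), Igkv4-59 in α-KG 2 at 2.28 CPM (others 0.429 to 0.834), Ighv8-12 in α-KG 1 at 1.32 CPM (others 0.648 to 0.790) and Igkv4-55 in α-KG 1 at 0.700 CPM (others 0 to 0.190). Among constant regions these were Ighm in α-KG 1 at 258 CPM (others 114 to 150) and Ighg3 in α-KG 2 at 3.41 CPM (others 0.177 to 1.05). Each of the 9 was the highest value of its group, and α-KG 1 and α-KG 2 held 3 each.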

How the results depend on the processing

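No paired analysis was possible because no number recurs between the titles of water and α-KG samples, and no label links them. The count of V segments called higher was 0 in edgeR and in all 18 alternatives, while 15 tested members had a log2 fold change above 0. The count called lower, 1 in edgeR, was 8 with DESeq2, 0 with limma voom and 0 to 4 with each library left out. The DESeq2 count of 8 ran from 4 to 12 with each library left out. These counts are set in part by the rule that chose the members, which some segments met only with their water counts. Without a filter the called member was Ighv5-12 in place of Iglv1. Over all genes, edgeR's 361 higher and 52 lower calls became 967 and 687 with DESeq2, 428 and 154 without a filter, 457 and 100 with upper quartile scaling, 225 and 42 with limma voom, and 0 to 1610 and 0 to 1073 with a library left out. Leaving out each library gave log2 ratios of -0.76 to -0.46 for the heavy chain sum, -0.71 to -0.42 for kappa and -1.35 to -0.98 for lambda. Without each library's most abundant lambda segment the lambda ratio was -0.57. At a summed count of 500 the kappa sum held Igkv1-110 alone and turned to 0.25, and no heavy chain member was left to give a value. The effective number moved from 29.7 to 36.8 for the heavy chain with no threshold, and to 1.00 for kappa and lambda at 500. With a library left out, log2 fold changes took both signs for Igkv1-110 (-0.035 to 0.54), Igkv14-111 (-0.61 to 0.18), Igkv1-135 (-0.098 to 0.13), Iglv3 (-0.27 to 0.31), Igkv4-59 (-0.078 to 0.79), Ighv5-16 (-1.61 to 0.40), Ighv1-18 (-0.67 to 0.89), Iglc2 (-0.15 to 0.37), Ighj1 (-0.53 to 0.090) and Cd79a (-0.14 to 0.67). Signs also turned for Igkv14-111 (0.18) and Iglc2 (0.039) with limma voom, for Igkv1-135 without a filter (-0.011), and for Iglc2 with upper quartile scaling (0.076), structural RNAs left out (0.012) or a filter of 1 CPM (0.012). None of these genes passed the edgeR test. The cause was not tested. A median of 10.9 counts per member and library limits what single segments can show.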
